A study of Mus musculus with 6 samples.

Results

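Lymphatic vessels drain fluid and immune cells from the lung, and their endothelium carries the same surface proteins, CD31 and VE-cadherin (Cdh5), as the endothelium of blood vessels. A preparation of CD31+ lung cells therefore also takes lymphatic endothelial cells. The results here follow 6 genes that mark these cells, Prox1, Lyve1, Mmrn1, Reln, Ccl21a and Tbx1, which mark these cells. All 6 were among the 24972 gene symbols measured. All 6 were also among the 14456 genes that reached 10 normalized counts in 3 or more libraries, which were the genes tested.

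RNA-Seq was performed on isolated lung ECs (iLECs, where the L stands for lung) of mice at P7, 3 control and 3 Atp6ap2iECKO samples. Control samples carried the floxed allele, Atp6ap2 fl/Y, without Cre. Atp6ap2iECKO samples carried the same floxed allele and Cdh5-CreERT2, a tamoxifen-inducible Cre driven by the VE-cadherin promoter, which is active in lymphatic as well as blood endothelium. Pups received 100 μg tamoxifen on P1, P2 and P3. Because the controls lack Cre, an effect of Cre itself and the loss of ATP6AP2, the (pro)renin receptor, cannot be told apart. The labels give the strain C57BL/6 for every sample, while the study's methods describe a mixed CD1 and C57BL/6 background. They also give every sample as fl/Y, although Xist, the RNA of the inactive X chromosome of females, was at 37704 to 47487 normalized counts in 4 libraries (control 1 and 2, Atp6ap2iECKO 1 and 3) and at 19.3 and 31.7 in the other two. The labels do not say whether a sample is 1 animal or a pool, so P values measure the spread between samples.

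The lymphatic program starts with PROX1, a homeodomain transcription factor that is needed to establish and keep lymphatic identity and is switched on in venous endothelium with the help of SOX18 and NR2F2. Lymphatic growth is driven mainly by VEGF-C, processed by CCBE1 and ADAMTS3, acting on its receptor VEGFR-3 (Flt4) with the coreceptor neuropilin 2 (Nrp2). Lymphatic vessels present LYVE1, a hyaluronan receptor, secrete the chemokine CCL21, which draws CCR7+ dendritic cells and T cells into them, and deposit the matrix proteins reelin (Reln) and multimerin 1 (Mmrn1). None of these products is limited to lymphatics. LYVE1 is also found on a class of tissue macrophages and on some blood endothelium of young animals, multimerin 1 in megakaryocytes and platelets, and PROX1 in heart muscle.

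Atp6ap2 itself was at 7490, 5815 and 5681 normalized counts in control 1 to 3, and at 4220, 2336 and 1982 in Atp6ap2iECKO 1 to 3. The genotypes did not overlap, and the gene fell by 1.22 on the log2 scale (SE 0.26, adjusted P = 0.0306, limma). The call was kept in 1 of 6 fits that left out 1 library each, with adjusted P values from 0.00604 to 0.103, and Atp6ap2iECKO 1 retained the highest level of its genotype. Pecam1, which encodes CD31, was between 48730 and 57759 in all libraries. Cdh5 was between 76599 and 110813.

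The chemokine gene Ccl21a belongs to a cluster with near-identical copies, and the copies bear on how its value can be read. Ccl21a lies at chr4:42772860-42773993 of GRCm38 on the minus strand. The annotation places Gm21541, Gm13304, Ccl21b and Gm10591 on the plus strand of the same chromosome, between positions 41903610 and 42612860. The coding sequences of these 4 copies are identical to each other over 402 bases. Each differs from Ccl21a at 2 bases (99.5% identity), T84A and C194T, where the first letter is the base of Ccl21a, the number counts from 1 at the first base of the start codon and the last letter is the base of the copy. The stretches of 41 coding bases around both positions are shown because a read confined to the coding sequence can tell Ccl21a from these copies only where it covers one of them. The base that differs is in capitals. In Ccl21a these bases are at positions 42773747 and 42773543 of chromosome 4, and in Gm10591 at 42612366 and 42612570.
Ccl21a around base 84: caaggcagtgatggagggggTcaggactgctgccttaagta
Gm10591 around base 84: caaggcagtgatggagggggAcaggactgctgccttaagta
Ccl21a around base 194: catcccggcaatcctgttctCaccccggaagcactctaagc
Gm10591 around base 194: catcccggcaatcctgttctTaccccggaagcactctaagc

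In each library exactly 1 of 5 copies (Ccl21b, Ccl21c, Gm10591, Gm13304 and Gm21541) had a value above 0, and which copy it was varied within each genotype. The value sat on Gm21541 in control 1 (695 normalized counts), on Gm13304 in control 2 (409) and on Ccl21c in control 3 (496). In Atp6ap2iECKO it sat on Gm10591 in library 1 (482), on Ccl21c in library 2 (557) and on Gm21541 in library 3 (589). Ccl21b was listed at 0 in all 6 libraries. Ccl21c was counted as a copy by its name, and its sequence was not compared here. The single copies were therefore not compared between genotypes, and their sum was. The copies together held 533 ± 146 normalized counts in control and 543 ± 54.9 in Atp6ap2iECKO (mean ± SD, n = 3 each), a log2 fold change of 0.05 (SE 0.20, adjusted P = 0.899, limma). They made up 8.24% to 13.7% of the total of Ccl21a and its copies.

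**Figure D1:**
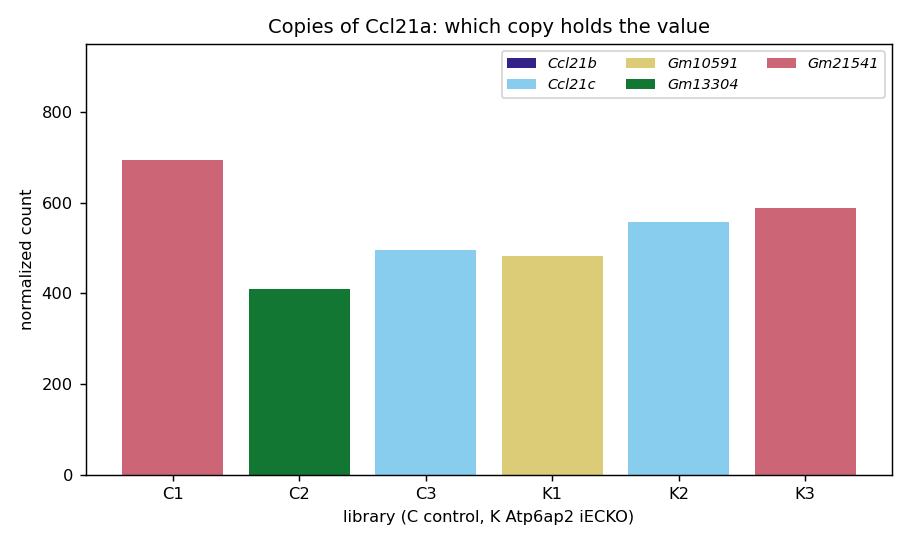
Normalized counts of 4 near-identical copies of Ccl21a and of Ccl21c, whose sequence was not compared, stacked in each library (C1 to C3 control, K1 to K3 Atp6ap2iECKO). Each bar has 1 color, because 1 copy per library holds the whole value, between 409 and 695.

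The 6 markers covered a wide range of levels in iLECs. Per kilobase of exon, Ccl21a (5338 normalized counts per kb, mean of 6 libraries) and Lyve1 (5177) stood at percentiles 99.01 and 98.99 of the genes tested. Mmrn1 (485 per kb) and Prox1 (210) were intermediate. Reln (47.8), whose exons span 23738 bases, and Tbx1 (13.5) were lowest. Ccl21a and Lyve1 cannot be ranked against each other, since their values overlapped across libraries and part of the Ccl21 signal sat on copies. Each of the other markers was above the next in this order in every library.

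None of the 6 markers passed the test between genotypes, whereas 8.25% of all genes tested did (1193 genes). In Atp6ap2iECKO 474 genes (3.28%) were higher and 719 (4.97%) lower. The log2 fold changes were above 0 for 5 markers and below 0 for 1, with a median of 0.29, against a median of 0.005 and 50.7% above 0 for all genes tested. Mmrn1 and Ccl21a had unadjusted P values under 0.05, both in the direction of higher levels. Of all genes tested, 23.9% had such a P value in either direction and 11.6% with a higher level. In none of the 6 were the libraries of the genotypes free of overlap, compared with 29.8% of all genes tested. In a bulk preparation of this kind, a change in the number of lymphatic cells and a change in RNA per cell cannot be told apart.

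**Figure D2:**
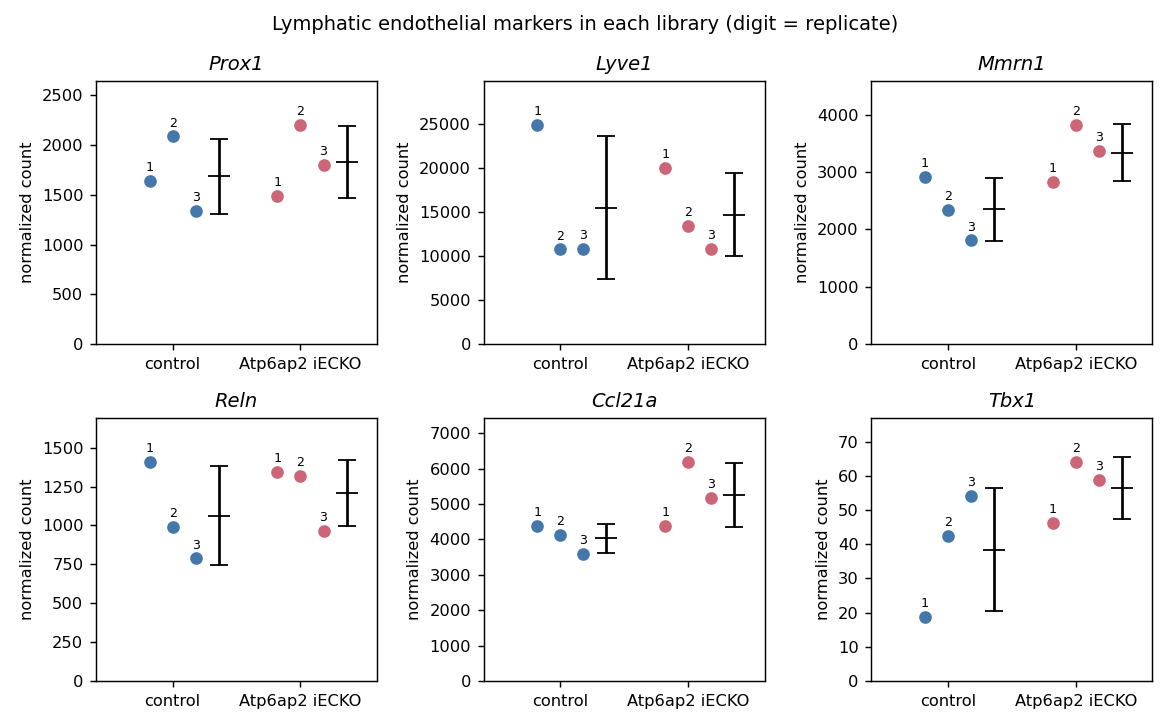
Normalized counts of the 6 lymphatic markers in each library (points, numbered by replicate), with the mean and SD of each genotype beside them (n = 3). In every panel the points of the genotypes overlap, and library 2 of Atp6ap2iECKO is the highest for Prox1, Mmrn1, Ccl21a and Tbx1.

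Prox1, the transcription factor that defines the lineage, lies at chr1:190118035-190170714 (minus strand, GRCm38). It was at 1637, 2088 and 1340 normalized counts in control 1 to 3 and at 1487, 2204 and 1803 in Atp6ap2iECKO 1 to 3. Libraries of both genotypes covered nearly the same range, with the lowest value in control 3 and the highest in Atp6ap2iECKO 2. The log2 fold change was 0.12 (SE 0.19, 95% interval −0.31 to 0.56, adjusted P = 0.752, limma). Its interval allowed a level between 0.81 and 1.47 times that of control. The noncoding genes Prox1os and Gm28172 overlap Prox1 on the opposite strand, and whether the counting used strand is not given in the sources used here.

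Tbx1 (chr16:18580979-18590671), a T-box factor required for lymphatic growth, was the least abundant marker. It was at 18.8, 42.3 and 54.1 in control 1 to 3 and at 46.3, 64.2 and 58.8 in Atp6ap2iECKO 1 to 3. Control 1 stood below the other five libraries, and the remaining libraries of the genotypes overlapped. Tbx1 had a log2 fold change of 0.65 with a wide interval (SE 0.42, −0.30 to 1.61, adjusted P = 0.393, limma). Without control 1 it was 0.22.

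Lyve1 (chr7:110850607-110863239) was at 24896, 10764 and 10852 in control 1 to 3 and at 19979, 13385 and 10798 in Atp6ap2iECKO 1 to 3. Library 1 was the highest of each genotype, and the other four libraries lay between 10764 and 13385. Between genotypes Lyve1 differed by −0.003 on the log2 scale (SE 0.35, 95% interval −0.80 to 0.80, adjusted P = 0.997, limma). That interval, from the fit without pairing, ran from 0.57 to 1.74 times the level of control. With replicate number as a block, the log2 fold change was the same and the SE was 0.12. The sign of the Lyve1 change depended on single libraries. Without control 1 the value was 0.40 and without Atp6ap2iECKO 1 it was −0.25.

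Reln (chr5:21884454-22344702), which encodes the secreted glycoprotein reelin, was at 1411, 989 and 788 in control 1 to 3 and at 1342, 1318 and 965 in Atp6ap2iECKO 1 to 3. Control 1 was again the highest library. Reln had a log2 fold change of 0.21 (SE 0.22, 95% interval −0.29 to 0.72, adjusted P = 0.615, limma). The value was 0.44 without control 1 and 0.02 without control 3.

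Mmrn1 (chr6:60924976-60989378) was at 2910, 2337 and 1809 in control 1 to 3 and at 2825, 3823 and 3374 in Atp6ap2iECKO 1 to 3. The genotypes overlapped only through library 1, in which control was slightly above Atp6ap2iECKO. The log2 fold change was 0.52 (SE 0.18, 95% interval 0.11 to 0.94), which did not pass the threshold (unadjusted P = 0.0196, adjusted P = 0.123, limma). Without library 1 of either genotype, a setting chosen after the values were seen, it was 0.80 and passed (adjusted P = 0.0328, limma). Over 18 alternative settings the adjusted P value ranged from 0.0328 to 0.308.

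Ccl21a was at 4386, 4137 and 3584 in control 1 to 3 and at 4384, 6203 and 5173 in Atp6ap2iECKO 1 to 3. Atp6ap2iECKO 1 was at the level of control 1, and the other two libraries of the genotype were above all controls. The log2 fold change was 0.37 (SE 0.14, 95% interval 0.06 to 0.69), and it did not pass the threshold (unadjusted P = 0.0264, adjusted P = 0.144, limma). With the copies added, the totals were 4569 ± 501 in control and 5796 ± 948 in Atp6ap2iECKO (mean ± SD, n = 3 each), and the log2 fold change was 0.34 (SE 0.13, adjusted P = 0.175, limma).

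**Figure D3:**
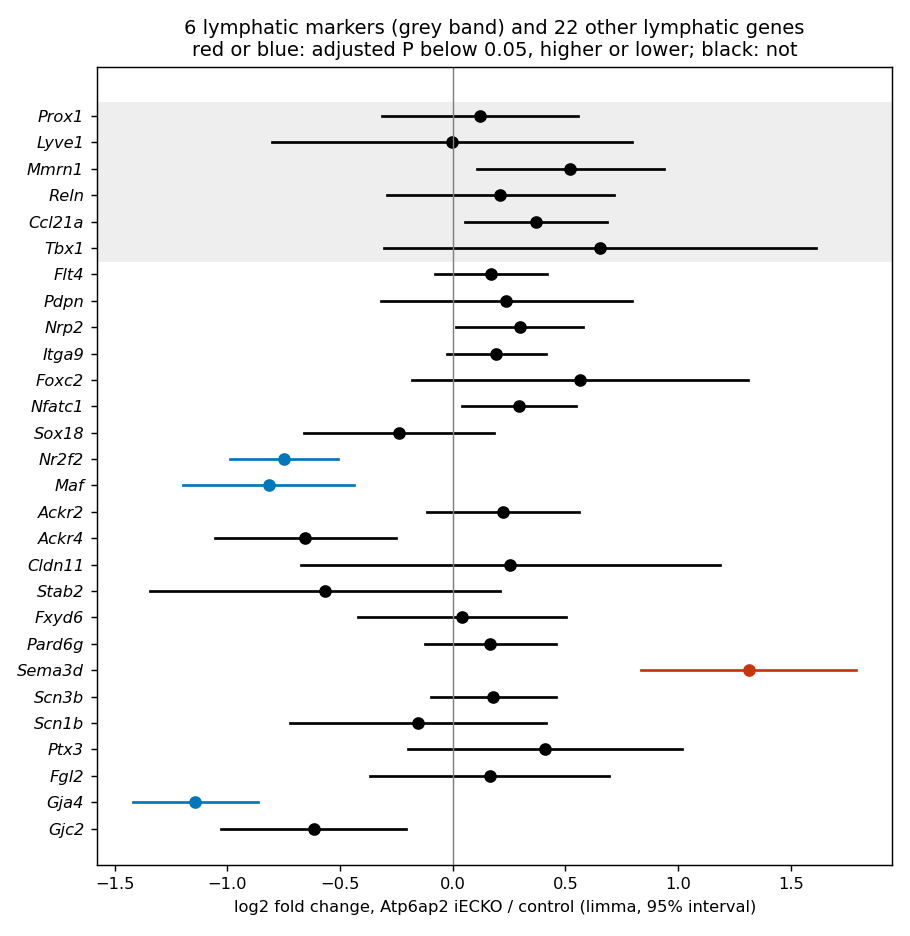
Log2 fold change of Atp6ap2iECKO against control with its 95% interval from limma, for the 6 markers (grey band) and 22 other lymphatic genes. Intervals of the 6 markers are black (not past the adjusted threshold), Sema3d is red (higher), and Nr2f2, Maf and Gja4 are blue (lower).

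Levels were next set against the endothelium as a whole, as the log2 value of a marker minus the mean log2 value of 12 pan-endothelial genes in the same library. That mean hardly differed between genotypes (difference 0.01). The ratio of Mmrn1 to it was −3.05, −3.16 and −3.46 in control 1 to 3 and −3.01, −2.54 and −2.59 in Atp6ap2iECKO 1 to 3. The genotypes did not overlap and differed by 0.51 on the log2 scale, at the smallest two-sided P value that an exact permutation test of 3 against 3 can give (P = 0.1, 0.35 after Benjamini-Hochberg adjustment over 7 ratios). The ratios of Prox1, Lyve1, Reln, Ccl21a, Tbx1 and Flt4 overlapped between genotypes. In level, 29.8% of all genes tested were free of overlap, and that share was not computed for ratios.

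Set against Prox1, the ratio of Ccl21a was 1.42, 0.99 and 1.42 on the log2 scale in control 1 to 3 and 1.56, 1.49 and 1.52 in Atp6ap2iECKO 1 to 3. These did not overlap either, with a difference of 0.25 (exact permutation P = 0.1, adjusted 0.6 over 6 ratios). The ratios of Lyve1, Mmrn1, Reln, Tbx1 and Flt4 to Prox1 overlapped. Beside this, 29.8% of all genes tested were free of overlap in level. The ratio of Lyve1 to Prox1 was uneven within both genotypes. It ran from 2.37 in control 2 to 3.93 in control 1, and from 2.58 to 3.75 within Atp6ap2iECKO.

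The markers did not vary as 1 unit across libraries. Over the 6 libraries Mmrn1 and Ccl21a had the highest Pearson r (0.95, and 0.88 after the mean of each genotype was removed). Lyve1 and Reln followed (0.83, and 0.88 within genotypes). Prox1 and Ccl21a had an r of 0.71, whereas Prox1 and Lyve1 had −0.26 and Lyve1 and Tbx1 −0.75. These are descriptions of 6 points that share library, normalization and depth, and the same libraries lay at the extremes of several markers. Control 3 was the lowest library for Prox1, Mmrn1, Reln and Ccl21a, and Atp6ap2iECKO 2 was the highest for Prox1, Mmrn1, Ccl21a and Tbx1. Relative depth, roughly estimated from the spacing of low values within a library, was 1.00 to 1.04 in control and 1.25 to 1.55 in Atp6ap2iECKO, with the highest value in Atp6ap2iECKO 2. It thus separated the genotypes, and its part in the results was not tested.

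**Figure D4:**
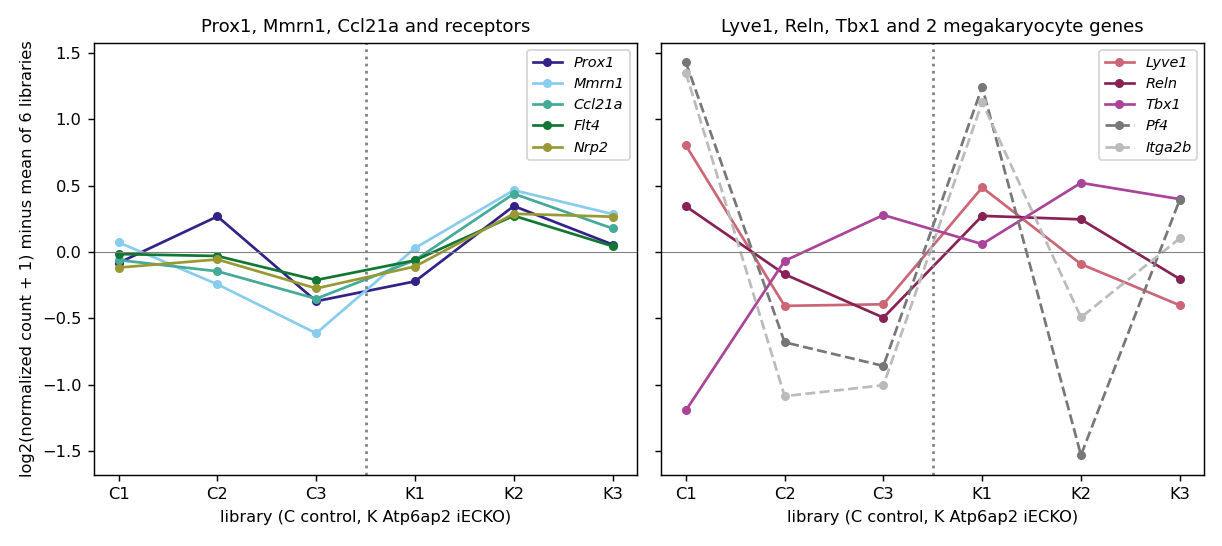
Log2 level of each gene in each library minus its mean over the 6 libraries (C1 to C3 control, K1 to K3 Atp6ap2iECKO). Left, Prox1, Mmrn1 and Ccl21a with the receptor genes Flt4 and Nrp2, which peak in K2; right, Lyve1, high in C1 and K1 as are the megakaryocyte genes Pf4 and Itga2b (dashed), Reln, high in C1, K1 and also K2, where Pf4 is lowest, and Tbx1, lowest in C1.

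The promoters of Mmrn1 and Ccl21a are shown because this pair, picked after the values were seen, had the highest r over the 6 libraries. Within genotypes Lyve1 and Reln had an r of 0.88 as well. Whether a pair shares its regulation was not tested. Each is a RefSeq window (GRCm38.p6) of 300 bases from 250 before to 50 after a start, read 5′ to 3′ on the gene's strand. The Mmrn1 window lies at a start inside the span that GENCODE gives for the gene. Motif matches are in capitals.
Mmrn1, chr6:60944067-60944366, plus strand: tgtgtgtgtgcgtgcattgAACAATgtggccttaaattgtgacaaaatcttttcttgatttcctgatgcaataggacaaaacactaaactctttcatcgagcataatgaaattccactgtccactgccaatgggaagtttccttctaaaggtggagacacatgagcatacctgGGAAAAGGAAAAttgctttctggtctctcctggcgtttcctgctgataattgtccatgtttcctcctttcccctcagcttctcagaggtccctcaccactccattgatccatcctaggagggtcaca
Ccl21a, chr4:42773942-42774241, minus strand: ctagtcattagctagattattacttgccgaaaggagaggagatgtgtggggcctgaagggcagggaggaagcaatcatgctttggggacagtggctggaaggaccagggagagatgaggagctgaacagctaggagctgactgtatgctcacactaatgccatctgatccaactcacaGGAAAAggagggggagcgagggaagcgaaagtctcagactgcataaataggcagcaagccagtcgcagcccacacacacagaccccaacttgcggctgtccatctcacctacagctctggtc
A window was given for 5 of the 6 markers. Both strands were searched for short motifs of factor families with roles in lymphatic endothelium. The letters AACAAT, which SOX factors bind, were in 10.7% of 32851 mouse promoter windows of the same length. The letters GGAAAA, which NFAT factors bind, were in 23.4%. A nuclear receptor half-site, AGGTCA, was in 16.3% of windows and the GATA motif AGATAA in 11.2%. Mmrn1 held 1 AACAAT and 2 adjoining GGAAAA, and Ccl21a held 1 GGAAAA. Matches of different motifs did not overlap in these windows. A Prox1 window, not shown, held 1 GGAAAA, and the windows of Reln and Tbx1 held no match. The matches are letters in a window and not measured binding sites.

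Levels of cells other than lymphatic endothelium that make the same products are given beside the markers, and their part in the results was not tested. The summed level of 10 megakaryocyte and platelet markers was 3595 in control 1 and 3112 in Atp6ap2iECKO 1, against 1163 to 1719 in the other four libraries. Pf4, the platelet chemokine, was at 463 and 407 in these libraries and at 58.6 to 225 elsewhere. Gp1ba did not follow this pattern, at 850 in control 1, 908 in Atp6ap2iECKO 1 and 1231, its highest value, in control 2. Outside control 1 and Atp6ap2iECKO 1 it was the largest single value of the list. Control 1 and Atp6ap2iECKO 1 are the 2 libraries with the highest Lyve1 and the highest Reln. Reln was nearly as high in Atp6ap2iECKO 2 (1318), where Pf4 was lowest. Mmrn1, which megakaryocytes also make, was highest in Atp6ap2iECKO 2 and 3 (3823 and 3374). The 10 markers of LYVE1+ macrophages summed to 3503 to 5397 in control and to 1571 to 6384 in Atp6ap2iECKO, with the lowest sum in Atp6ap2iECKO 2. Folr2 (1.501 to 18.6), Cd163 (2.28 to 41.3) and Timd4 (7.46 to 30.4) were near 0. Other genes of the list were higher, with Mrc1 at 857 to 1533 and Csf1r at 391 to 2148. C1qa was at 71.2 to 675 and F13a1 at 40.4 to 289. No macrophage or megakaryocyte gene passed the test (0 of 9 each, limma, none with an unadjusted P under 0.05), beside 8.25% of all genes tested that passed and 23.9% with such an unadjusted P. The 10 heart muscle markers summed to 769 to 1278 in control and to 1145 to 1350 in Atp6ap2iECKO. Most of that sum was Ryr2, a calcium channel gene, at 590 to 1090 in control and 989 to 1233 in Atp6ap2iECKO (log2 fold change 0.60, unadjusted P = 0.0290, adjusted P = 0.152, limma). Myl4 went the other way, at 99.6 to 145 in control and 47.9 to 84.7 in Atp6ap2iECKO. Its log2 fold change was −0.69 (unadjusted P = 0.0501, adjusted P = 0.209, limma). Tnnt2 was at 8.87 to 13.9 in control and 14.9 to 24.0 in Atp6ap2iECKO (log2 fold change 0.70, adjusted P = 0.364, limma). Myh6 was at 0 to 34.9 and Myl7 at 0 to 4.62. Ryr2 was singled out after its values were seen. For blood endothelium, the 8 venous markers, mostly Vwf, summed to 46990.5 in control 1 and 44667.5 in Atp6ap2iECKO 1, and to 28600 to 38580 elsewhere. The 10 blood capillary markers summed to 133663 to 168380 in control, highest in control 1. In Atp6ap2iECKO they summed to 103006 to 118462, highest in library 2.

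Beside the 6 markers, other genes of lymphatic endothelium were examined. Of 22 such genes, all tested, 1 rose, 3 fell and 18 did not pass, with a median log2 fold change of 0.17. This is 18.2% called, beside 8.25% of all genes tested. Sema3d, a secreted semaphorin, was at 219, 222 and 157 in control 1 to 3 and at 387, 529 and 576 in Atp6ap2iECKO 1 to 3. It rose by 1.31 on the log2 scale (SE 0.21, adjusted P = 0.0138, limma), but not past the threshold without Atp6ap2iECKO 2 or 3 (adjusted P = 0.0562 and 0.0605, limma).

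The receptor genes of the VEGF-C pathway, Flt4 and Nrp2, did not pass the test. Flt4, the VEGF-C receptor, was at 6518, 6452 and 5692 in control 1 to 3 and at 6307, 7963 and 6793 in Atp6ap2iECKO 1 to 3, a log2 fold change of 0.17 (SE 0.11, adjusted P = 0.388, limma). Nrp2, its coreceptor, was at 4392, 4583 and 3940 against 4417, 5819 and 5731, a log2 fold change of 0.30 (SE 0.12, adjusted P = 0.185, limma), which passed only without Atp6ap2iECKO 1 (0.43, adjusted P = 0.0477). Neither receptor was clear of overlap. The valve integrin gene Itga9 had a log2 fold change of 0.19, Foxc2, a transcription factor of lymphatic valves, 0.57, and the mucin-type glycoprotein gene Pdpn 0.24, with adjusted P values of 0.269, 0.341 and 0.609 (limma).

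Of the factors upstream of Prox1, Nr2f2 fell and Sox18 did not pass the test. Nr2f2, which encodes COUP-TFII, the factor of venous and lymphatic identity, was at 1482, 1892 and 1734 in control 1 to 3 and at 1009, 1014 and 1003 in Atp6ap2iECKO 1 to 3. The libraries of Atp6ap2iECKO lay close together and below every control. The gene fell by 0.75 on the log2 scale (SE 0.10, adjusted P = 0.0104, limma) and stayed past the threshold in each of 18 alternative settings. COUP-TFII is also made by fibroblasts and mural cells, whose markers are given below. Sox18 was at 4369, 6930 and 5034 against 3929, 5442 and 4327, with a log2 fold change of −0.24 (SE 0.18, adjusted P = 0.481, limma).

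Maf, a transcription factor also made by macrophages, fell by 0.82 (SE 0.16, adjusted P = 0.0267, limma), a call kept in 1 of 6 fits that left out a library. Gja4, which encodes connexin 37, a gap junction protein of lymphatic valves and of arteries, was at 4846, 5837 and 6035 in control 1 to 3 and at 2856, 2478 and 2241 in Atp6ap2iECKO 1 to 3. It fell by 1.14 (SE 0.12, adjusted P = 0.00731, limma), in each of 18 alternative settings as well.

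Several genes that signal to lymphatic endothelium or act in its growth fell. Of 26 listed genes 25 were in the data and tested, of which 1 rose, 8 fell and 16 did not pass, with a median of −0.22 (36% called, and 8.25% of all genes tested). Vegfc, the main ligand, was at 1673, 1500 and 1540 in control 1 to 3 and at 1998, 1597 and 1528 in Atp6ap2iECKO 1 to 3, a log2 fold change of 0.11 (SE 0.12, adjusted P = 0.614, limma). Vegfd, the other ligand of VEGFR-3, was at 665, 951 and 722 against 417, 300.3 and 273 and fell by 1.24 (SE 0.20, adjusted P = 0.0138, limma). That call was lost in 4 of 18 alternative settings, among them those without control 3, Atp6ap2iECKO 2 or Atp6ap2iECKO 3, with adjusted P values up to 0.0561. Every Atp6ap2iECKO library was below every control for Vegfd, whereas the libraries overlapped for Vegfc. The processing genes Ccbe1 (log2 fold change −0.74, adjusted P = 0.258) and Adamts3 (−1.13, adjusted P = 0.0912) did not pass (limma).

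The matrix gene Svep1 fell by 1.12, the angiopoietin gene Angpt1 by 1.41, its receptor gene Tek by 0.53, the peptide hormone gene Adm by 1.08, the ephrin gene Efnb2 by 0.73, the homeobox gene Hhex by 0.59 and the cadherin gene Fat4 by 0.53 on the log2 scale, with adjusted P values between 0.0108 and 0.0411 (limma). Celsr1, a planar polarity cadherin of lymphatic valves, rose by 0.80 (adjusted P = 0.0262, limma). Of these, Angpt1 alone stayed past the threshold in each of 18 alternative settings. When single libraries were left out, between 1 and 6 genes of the list fell past the threshold. Tek is also one of the 12 pan-endothelial genes. The control means of Tek (23694 normalized counts) and Efnb2 (32144) were far above that of Prox1 (1689). Which cells of the preparation these falls came from was not tested.

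Vegfd, Svep1 and Angpt1 are known products of mesenchymal cells, and the markers of such cells moved with genotype in the same preparations. The summed level of 10 fibroblast markers was 57983 to 95232 in control and 23012 to 29957 in Atp6ap2iECKO, and 8 of 9 tested fell, with a median log2 fold change of −1.56. That of 10 mural markers was 13589 to 20445 against 5626 to 7146, and 7 of 10 fell, with a median of −1.49. Neither sum overlapped between genotypes, and Col1a1, for example, fell by 1.62. Their part in the lower levels of Vegfd, Svep1, Angpt1 and Nr2f2 was not tested. Of 12 pan-endothelial genes 1 (Tek) fell, with a median of 0.05, a share called of 8.33% beside 8.25% of all genes tested. Of the venous list 1 of 7 tested rose (14.3%, median −0.30), and of the blood capillary list 1 rose and 1 fell of 10 (20%, median −0.29). In the lists of cardiomyocyte (6 tested), mesothelial (3) and lymphoid (7) genes, limma called 0, with 1, 1 and 0 genes at an unadjusted P under 0.05.

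**Figure D5:**
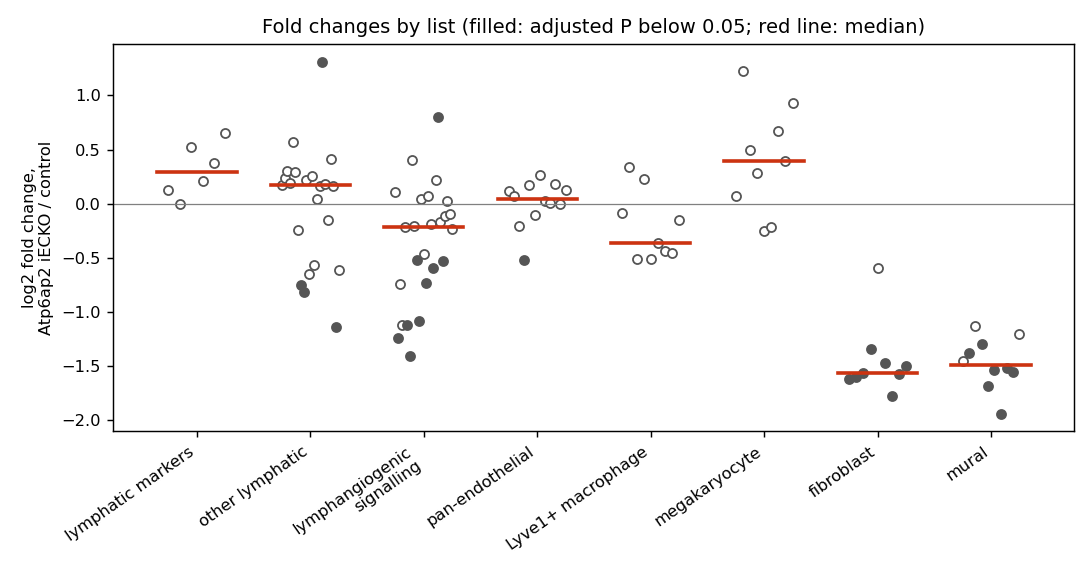
Log2 fold changes of the tested genes of 8 lists (points, filled where the adjusted P value passed the threshold), with the median of each list as a red line. The 6 markers lie between −0.003 and 0.65. The pan-endothelial median lies at 0.05, and the fibroblast and mural medians lie at −1.56 and −1.49.

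Partners of the marker proteins were measured as well. Ccr7, the receptor for CCL21 on immune cells, was between 399 and 1079 without a call (log2 fold change −0.11). Of the reelin receptors, Vldlr was at 872, 1071 and 1053 in control 1 to 3 and at 737, 740 and 723 in Atp6ap2iECKO 1 to 3, and fell by 0.44 (SE 0.11, adjusted P = 0.0461, limma). That call was lost in 11 of 18 alternative settings, with adjusted P values up to 0.152. Lrp8, which encodes the other reelin receptor, ApoER2, was at 31.0, 29.3 and 16.4 against 76.0, 75.3 and 98.6 and rose by 1.71 (SE 0.33, adjusted P = 0.0244, limma), a call lost in 4 of 18 settings with adjusted P values up to 0.106. Reln, the gene of their ligand, did not pass the test.

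The 10 genes whose profile over the 6 libraries was most like the mean standardized profile of the markers were Llph, Cand1, Dnajc1, Eif2s2, Copb1, Pdss2, Dhx9, Eaf1, Cdh13 and Naa50 (Pearson r 0.983 to 0.990, n = 6 libraries). Among 12445 genes with a mean of at least 50 normalized counts, 219 (1.76%) had an r of at least 0.9. Of the receptor genes, Flt4 ranked 94th with an r of 0.94, and Nrp2 ranked 830th with an r of 0.80. The markers' own r with that mean ran from 0.11 for Tbx1 and 0.29 for Lyve1 to 0.94 for Ccl21a and 0.96 for Mmrn1, so that the mean profile stands for the latter pair more than for the whole set.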

How the data were processed

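iLECs were isolated on CD31-coated beads, and libraries were made with the TruSeq RNA kit. The authors aligned reads to mm10 with BaseSpace tools. The deposited table holds a normalized signal per gene symbol and library, called here a normalized count. The labels call the values raw counts, but 66.1% to 67.2% of them are not whole, and the median ratio to the geometric mean is 1.0036 in each library. The share of low values that were whole multiples of a library's smallest step was 53.6% to 72.5% (tolerance 0.05), so reads were not recovered and no counting interval is given. Totals were 26243900 to 28725800.

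The marker genes and lists were chosen with earlier results of these data known. Log2(value + 1) was tested with limma 3.58.1 (R 4.3.3, mean-variance trend, no covariate) over the 14456 genes with at least 10 in at least 3 libraries, with Benjamini-Hochberg adjustment and a threshold of 0.05. Ratios were compared with two-sided exact permutation tests. Named genes were the markers, Atp6ap2, called list genes and a preset set of pathway genes, the first 4 of each cell type list, and the 10 genes most like the markers. The Ccl21a copies Gm10591, Gm13304 and Gm21541 were named after their values were seen. The same holds for Ryr2, Gp1ba, Timd4, C1qa, Csf1r and Ccr7, which that rule does not cover. GENCODE M21 (GRCm38) matched 24490 of 24972 symbols (98.1%) and gave coordinates, exon lengths and coding sequences. Alternatives were other scalings, filters, pseudocounts, no trend, an Xist covariate, a replicate block and leaving out libraries. The fit was tested on simulated data.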

Additional observations from a re-analysis of the deposited data

How the results depend on the processing

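Signs of the smallest fold changes depended on the setting. The log2 fold change of Lyve1 was 0.037 with equal library totals, 0.0025 with upper quartile scaling, 0.0085 with trimmed means, 0.0336 with totals taken without fibroblast and mural genes, and 0.15 without library 1 of both genotypes. Leaving out 1 library at a time gave −0.25 to 0.40 for Lyve1, −0.0325 to 0.29 for Prox1, 0.35 to 0.69 for Mmrn1 and −0.0065 to 0.19 for Vegfc. The ratio to the pan-endothelial mean then ran from −0.0161 to 0.30 for Prox1 and from −0.23 to 0.31 for Lyve1, and the ratio to Prox1 from −0.51 to 0.29 for Lyve1 and from −0.14 to 0.32 for Reln. Mmrn1 was 0.80 (adjusted P = 0.0328, limma) and the count of markers past the threshold 1 without library 1 of both genotypes; in all other settings the count was 0.

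Leaving out 1 library gave 0 to 2 other lymphatic genes higher, and 0 to 2 higher and 1 to 6 lower among the lymphangiogenic genes, whose median ran from −0.32 to −0.15. That list had 0 higher and 1 lower without the variance trend, 5 lower with the Xist covariate, and 2 higher with a median of −0.36 without library 1 of both genotypes. Calls over all genes numbered 1193, between 206 and 983 with a library left out, 304 without the trend, 767 with the Xist covariate and 1508 with the replicate block. The block left 0 markers past the threshold, with the log2 fold change of Mmrn1 at 0.52 (adjusted P = 0.112, limma). Same-numbered libraries correlated by 0.25, 0.11 and 0.08 in their deviations from the genotype means, and differently numbered ones by −0.21 to 0.10. Same-numbered pairs 1 and 2 were thus above every differently numbered pair, and pair 3 was not. The main fit did not treat the replicates as paired, and these values do not settle whether they should be. No library's read number is known, and markers at the level of Tbx1 are measured least precisely. The causes were not tested.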
